A study of Mus musculus with 12 samples.

Results

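The genes described here encode the core of transforming growth factor beta (TGF-beta) signaling outside the cell: the ligands *Tgfb1*, *Tgfb2* and *Tgfb3*, the receptors *Tgfbr1*, *Tgfbr2* and *Tgfbr3*, and the latent TGF-beta binding proteins *Ltbp1*, *Ltbp2* and *Ltbp3*. They were chosen by symbol, with earlier results of these data known, and matched through the NCBI Gene ID. All 9 were found among the 27179 genes of the count table and passed the filter on low counts. RNA-seq was performed on 12 tibialis anterior (TA) muscles of young male wild-type C57BL/6N mice. In each of 6 mice, 1 TA received 10 μg of empty pcDNA3 plasmid (Control muscles, n = 6), and the TA of the other leg received 10 μg of plasmid in which the cytomegalovirus promoter drives the full-length human lncRNA *FRAIL1* (*FRAIL1* muscles, n = 6). Plasmid was delivered by electroporation after hyaluronidase injection in both groups, and the muscles were taken at day 7. The promoter is not specific to muscle fibers, and whole muscle was extracted, so each value sums over transfected and untransfected fibers and all other cells of the TA.

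Members of this family are secreted as latent complexes: the propeptide of each ligand stays bound to the growth factor, and a latent TGF-beta binding protein tethers most complexes to the extracellular matrix until integrins or proteases release the ligand. Free ligand binds the type II receptor TGFBR2, which recruits and phosphorylates the type I receptor TGFBR1, and Smad2 and Smad3 carry the signal to the nucleus. In skeletal muscle the pathway is known for driving matrix production by fibroblasts and for restraining the differentiation of myoblasts.

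Total counts per muscle were 44848322 to 60527385. *FRAIL1* muscle 5 stood apart from the other libraries, at 59.5 on the first principal component (32.4% of the variance of log2 CPM) against 25.8 for the next. Markers of muscle fibers, such as *Ckm* and *Acta1*, were abundant in every muscle (178454 to 208936 CPM summed over 10 genes in Control and 136104 to 190963 CPM in *FRAIL1* muscles). The human *FRAIL1* transcript is not a row of this mouse table and was not analysed here.

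In *FRAIL1* muscles, *Tgfb1*, *Tgfb3*, *Ltbp2* and *Ltbp3* were higher than in Control muscles, while the receptors and *Tgfb2* and *Ltbp1* did not pass the test. *Tgfb1* and *Ltbp3* kept that call in each of the 23 alternative analyses, whereas *Tgfb3* and *Ltbp2* kept it in 12 of them each. Adjusted p-values here are from the quasi-likelihood test of edgeR across 15502 genes, adjusted by the method of Benjamini and Hochberg, with a threshold of 0.05. By this test 4.43% of all genes tested were higher, 1.85% were lower and 6.28% changed in either direction. Of the 9 genes 4 were higher and 0 were lower in edgeR. At an unadjusted p-value under 0.05, 7 were higher and 1 was lower. The share of all genes at that threshold was not computed, here or for the lists below. The DESeq2 Wald test called 4 higher and 0 lower (1281 and 951 over all genes), and limma voom called 3 and 0 (943 and 813). Without *FRAIL1* muscle 5, 3 were higher. Their median log2 fold change was 0.26, against 0.0096 over all genes tested. Because the 9 were chosen with earlier results known, these comparisons with all genes do not describe an unselected set. In these bulk samples, a change in the number of cells of a type and a change in RNA per cell cannot be told apart. Levels below are CPM (the reads of a gene relative to the total of its library, scaled with the TMM method), and fold changes are *FRAIL1* over Control.

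**Figure D1:**
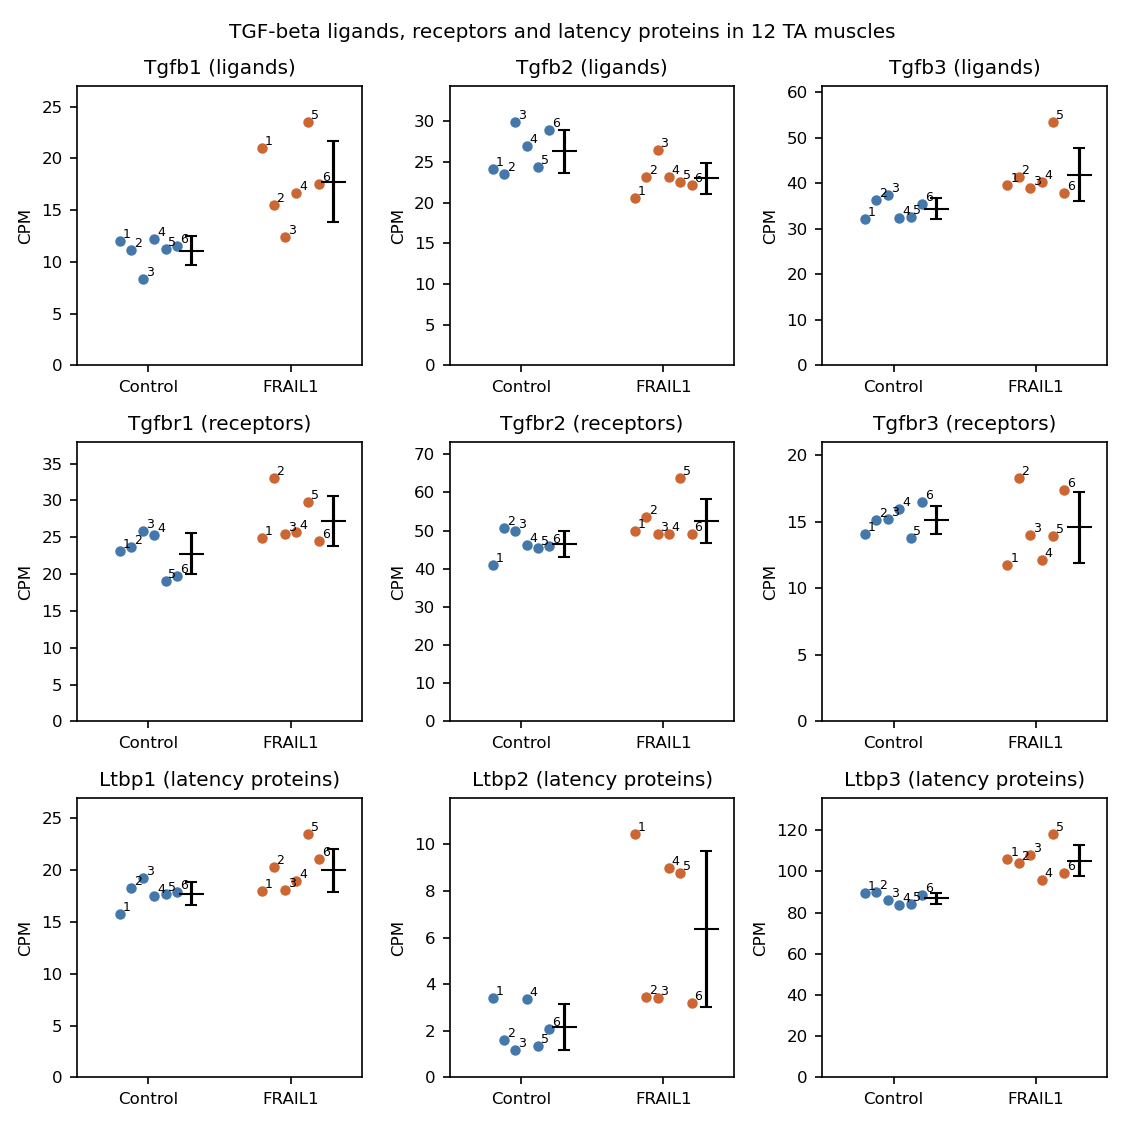
CPM (y axis, from 0) of each of the 9 mRNAs in 6 Control (blue) and 6 *FRAIL1* (orange) muscles, with the replicate number beside each point and the mean with SD in black. All *FRAIL1* muscles lie above all Control muscles for *Tgfb1*, *Tgfb3* and *Ltbp3*, and the groups overlap for the other 6 genes.

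*Tgfb1* (Gene ID 21803, chr7:25687002-25705077 of GRCm38, plus strand) encodes the prototype ligand of the family. Its level in Control muscles ran from 8.34 CPM through a median of 11.4 to 12.2, and in *FRAIL1* muscles from 12.4 through 17.1 to 23.5. All 6 *FRAIL1* values exceeded all 6 Control values, with *FRAIL1* muscles 5 and 1 highest and Control muscle 3 lowest. Such a separation upward was found in 3.12% of all genes tested, and in 3 of these 9, and a separation downward in 1.77% and in 0 of the 9. Means were 11.1 ± 1.40 and 17.8 ± 3.95 CPM for Control and *FRAIL1* muscles (SD, n = 6 each), 1.60-fold higher on the fitted scale, or 0.68 ± 0.137 on the log2 scale (SE; adjusted p = 0.0149, edgeR). With each muscle left out in turn the log2 fold change lay between 0.58 and 0.76 and the adjusted p between 0.00273 and 0.0378.

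*Tgfb2* (Gene ID 21808, chr1:186622787-186709697 of GRCm38, minus strand), a ligand best known from development, had a lower mean in *FRAIL1* muscles and did not pass the test. It ran from 23.5 through 25.7 to 29.9 CPM in Control and from 20.6 through 22.8 to 26.5 CPM in *FRAIL1* muscles. The ranges overlapped, and 5 of the 6 *FRAIL1* muscles were below the Control median. The groups differed by -0.19 ± 0.0752 in log2 CPM (SE; adjusted p = 0.116, edgeR). Without *FRAIL1* muscle 3, the highest of its group, the log2 fold change was -0.24 and the adjusted p was 0.0460.

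*Tgfb3* (Gene ID 21809, chr12:86056743-86079041 of GRCm38, minus strand), a ligand linked to scarless repair and palate formation, ran from 32.1 through 34.0 to 37.4 CPM in Control and from 37.8 through 39.9 to 53.3 CPM in *FRAIL1* muscles. The groups did not overlap, but the gap between them was narrow, and *FRAIL1* muscle 5 stood above the other *FRAIL1* muscles, which reached 41.4 CPM. The mean rose from 34.4 ± 2.29 to 41.9 ± 5.73 CPM (SD, n = 6 each), 1.22-fold, or 0.29 ± 0.0799 on the log2 scale (SE; adjusted p = 0.0477, edgeR). Without *FRAIL1* muscle 5 the log2 fold change was 0.20 and the adjusted p was 0.0377. The adjusted p went above the threshold without any single Control muscle and without *FRAIL1* muscle 1, 4 or 6, between 0.0527 and 0.0989. The unadjusted p was 0.00247 without Control muscle 3 and 0.00219 without *FRAIL1* muscle 6, against 0.00273 with all 12 muscles (edgeR). In the rest of these fits it was higher, up to 0.00763. The adjustment runs over all genes. Of these, 330 were higher without Control muscle 3 and 501 without *FRAIL1* muscle 6, against 687 with all 12 muscles. Exons of other annotated genes overlap 12.4% of the exons of *Tgfb3*, and whether reads were assigned by strand is not given in the sources used here.

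The ligands changed unequally. The log2 ratio of a pair of mRNAs within 1 muscle was compared between groups with a two-sided exact permutation test over the 924 ways to split the 12 muscles. The smallest p-value this allows is 0.00216, and p-values were adjusted over the 9 pairs of genes of the same role. The muscles were treated as unpaired, because the labels do not say that a replicate number marks a mouse. Tests that pair muscles by replicate number are given at the end. The ratio of *Tgfb1* to *Tgfb2* was 1.80-fold higher in *FRAIL1* muscles (log2 difference 0.85, exact permutation p = 0.00649, adjusted p = 0.0292), with 5 of 6 *FRAIL1* muscles above all Control muscles. *Tgfb2* relative to *Tgfb3* was lower, with a log2 difference of -0.47 (exact permutation p = 0.00433, adjusted p = 0.0292). *Tgfb1* relative to *Tgfb3* was higher by 0.38 on the log2 scale (exact permutation p = 0.0281, adjusted p = 0.0487). The *Tgfb1*/*Tgfb2* and *Tgfb2*/*Tgfb3* differences passed the threshold with any 1 muscle left out, the *Tgfb1*/*Tgfb3* difference in 3 of 12 such tests, and none did without both muscles numbered 5 (adjusted p of 0.107, 0.107 and 0.157, in that order), where the log2 differences were 0.79, -0.40 and 0.39.

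**Figure D2:**
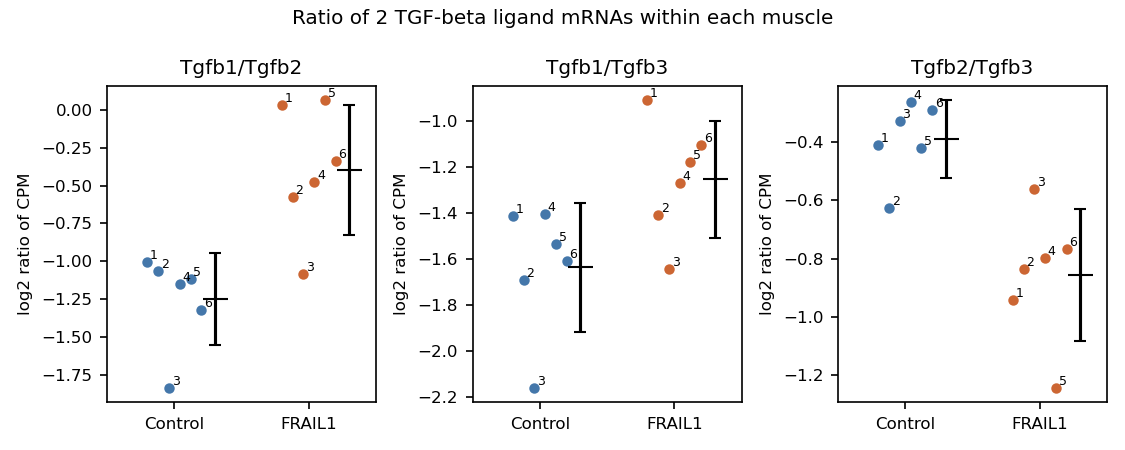
Log2 ratio of the CPM of a pair of ligand mRNAs (y axis, not starting at 0) in each Control (blue) and *FRAIL1* (orange) muscle, with the replicate number beside each point and the mean with SD in black. *FRAIL1* muscle 3 is the one *FRAIL1* muscle that lies within the Control range for *Tgfb1*/*Tgfb2* and for *Tgfb2*/*Tgfb3*.

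Expressed per kilobase of exon and summed over the 3 ligands, *Tgfb3* mRNA made up 50.0 ± 2.57% of ligand mRNA in Control and 49.5 ± 2.23% in *FRAIL1* muscles (SD, n = 6 each). The *Tgfb1* share was 25.1 ± 3.44% in Control and 32.5 ± 4.37% in *FRAIL1* muscles. The *Tgfb2* share was 24.9 ± 2.01% in Control and 18.0 ± 3.01% in *FRAIL1* muscles. With all annotated exons as the length, the *Tgfb1* share was 13.1 ± 2.02% in Control and 17.6 ± 2.84% in *FRAIL1* muscles, below the *Tgfb2* share of 26.8 ± 1.85% and 20.2 ± 2.89%. The *Tgfb3* share was then 60.1 ± 2.06% in Control and 62.2 ± 1.75% in *FRAIL1* muscles. These shares describe the same muscles as the ratios and were not tested again.

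None of the 3 receptors passed the test. *Tgfbr1* (Gene ID 21812, chr4:47353222-47414926 of GRCm38, plus strand), the type I receptor kinase, ran from 19.0 through 23.4 to 25.8 CPM in Control and from 24.5 through 25.6 to 33.0 CPM in *FRAIL1* muscles. All 6 *FRAIL1* muscles were above the Control median, but 2 were above every Control muscle. The groups differed by 0.26 ± 0.0931 in log2 CPM (SE; adjusted p = 0.0964, edgeR), and it passed the threshold in 0 of the 23 alternatives.

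*Tgfbr2* (Gene ID 21813, chr9:116087695-116175363 of GRCm38, minus strand), the ligand-binding type II receptor, ran from 41.1 through 46.1 to 50.6 CPM in Control and from 49.1 through 49.5 to 63.7 CPM in *FRAIL1* muscles. The upper end was set by *FRAIL1* muscle 5, since the other *FRAIL1* muscles reached 53.7 CPM. The groups differed by 0.17 ± 0.0734 in log2 CPM (SE; adjusted p = 0.146, edgeR) and 0.11 without that muscle. *Tgfbr3* (Gene ID 21814, chr5:107106567-107289629 of GRCm38, minus strand) encodes betaglycan, a co-receptor that presents ligand, TGF-beta2 above all, to the signaling receptors. It ran from 13.8 through 15.2 to 16.5 CPM in Control and from 11.8 through 14.0 to 18.3 CPM in *FRAIL1* muscles, so that the *FRAIL1* range enclosed the Control range. The groups differed by -0.05 ± 0.105 in log2 CPM (SE; adjusted p = 0.788, edgeR). It changed sign, to 0.0020, without *FRAIL1* muscle 1. The ratio of *Tgfbr1* to *Tgfbr3* was 1.25-fold higher in *FRAIL1* muscles (exact permutation p = 0.0325, adjusted p = 0.0487), and passed in 2 of the 12 tests that left out 1 muscle. The other receptor pairs did not pass, with an adjusted p of 0.357 for *Tgfbr1*/*Tgfbr2* and 0.111 for *Tgfbr2*/*Tgfbr3* (exact permutation tests).

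Of the latent TGF-beta binding proteins, *Ltbp3* (Gene ID 16998, chr19:5740900-5758536 of GRCm38, plus strand), which is needed for secretion and storage of TGF-beta in bone and other tissues, had the least spread. It ran from 83.6 through 87.2 to 89.8 CPM in Control and from 96.1 through 105 to 118 CPM in *FRAIL1* muscles, with no overlap. The mean rose from 86.9 ± 2.76 to 105 ± 7.63 CPM (SD, n = 6 each), 1.21-fold, or 0.28 ± 0.0563 on the log2 scale (SE; adjusted p = 0.0151, edgeR). Leaving out any 1 muscle gave log2 fold changes of 0.24 to 0.30 and an adjusted p of 0.0384 at most.

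*Ltbp2* (Gene ID 16997, chr12:84783212-84876558 of GRCm38, minus strand) had the largest fold change of the 9 and the lowest level. Unlike the other family members it does not bind latent TGF-beta, and it is known for roles in elastic fibers and microfibrils. It ran from 1.16 through 1.84 to 3.40 CPM in Control muscles, on 56 to 167 counts, and from 3.20 through 6.11 to 10.4 CPM in *FRAIL1* muscles, on 163 to 533 counts. *FRAIL1* muscles 1, 4 and 5, at 8.77 CPM or more, stood apart from *FRAIL1* muscles 2, 3 and 6, at 3.44 CPM or less, and muscles 1 and 4 were also the highest in the Control group. The groups overlapped, and 4 of 6 *FRAIL1* muscles were above every Control muscle. The mean was 2.16 ± 0.988 CPM in Control and 6.37 ± 3.36 CPM in *FRAIL1* muscles (SD, n = 6 each), 2.94-fold higher on the fitted scale. On the log2 scale the change was 1.56 ± 0.393 (SE; adjusted p = 0.0397, edgeR). It stayed between 1.35 and 1.73 with 1 muscle left out, but the adjusted p then passed the threshold in 4 of 12 fits. It was between 0.0521 and 0.0824 without Control muscle 1, 2, 3, 5 or 6 or *FRAIL1* muscle 1, 4 or 5. The unadjusted p was 0.00138 without Control muscle 1, against 0.00178 with all 12 muscles, and higher in the rest of these fits (edgeR). The adjusted p was 0.00548 with the replicate number as a block, and 0.126 without both muscles numbered 5 (edgeR). Exons of *D030025P21Rik* overlap 9.34% of the exons of *Ltbp2*.

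*Ltbp1* (Gene ID 268977, chr17:75005480-75392512 of GRCm38, plus strand), the binding protein that carries TGF-beta1 in most tissues, ran from 15.8 through 17.8 to 19.3 CPM in Control and from 18.0 through 19.7 to 23.4 CPM in *FRAIL1* muscles. All 6 *FRAIL1* muscles were above the Control median and 3 were above every Control muscle. The groups differed by 0.17 ± 0.0735 in log2 CPM (SE; adjusted p = 0.146, edgeR), and 0.12 without *FRAIL1* muscle 5. *Ltbp2* rose relative to *Ltbp3* by 1.21 on the log2 scale (exact permutation p = 0.0238, adjusted p = 0.0487). *Ltbp1* relative to *Ltbp2* was lower, with a log2 difference of -1.31 (exact permutation p = 0.0216, adjusted p = 0.0487). Each passed in 4 of the 12 tests that left out 1 muscle. *Ltbp1*/*Ltbp3* did not pass (log2 difference -0.11, exact permutation adjusted p = 0.185).

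**Figure D3:**
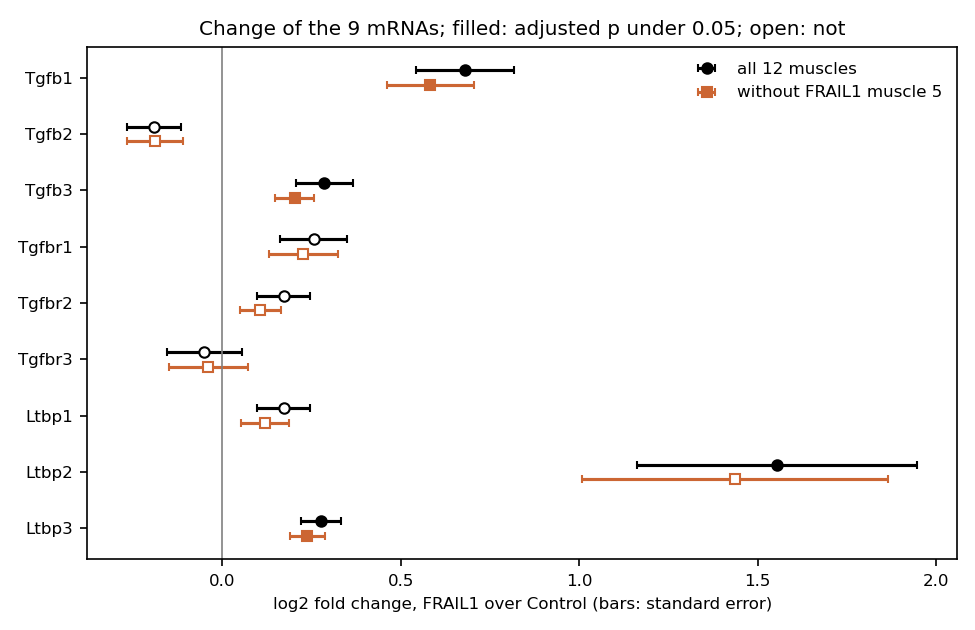
Log2 fold change of *FRAIL1* over Control muscles (x axis) with its standard error for each gene, fitted with all 12 muscles (black) and without *FRAIL1* muscle 5 (orange); filled symbols have an adjusted p under 0.05. *Tgfb1*, *Tgfb3* and *Ltbp3* are filled in both fits, and *Ltbp2* is filled with all 12 muscles.

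For the genes that passed the test, the 250 bases before the RefSeq transcription start (GRCm38.p6, the build of mm10) are shown for the 3 with an entry. They run from 5′ to 3′, and capitals mark matches on either strand to the motifs searched: the GC box GGGCGG, the AP-1 motif TGANTCA, the Smad-binding element CAGAC and the TATA box TATAAA.
Tgfb1 promoter, chr7:25686752-25687001, plus strand: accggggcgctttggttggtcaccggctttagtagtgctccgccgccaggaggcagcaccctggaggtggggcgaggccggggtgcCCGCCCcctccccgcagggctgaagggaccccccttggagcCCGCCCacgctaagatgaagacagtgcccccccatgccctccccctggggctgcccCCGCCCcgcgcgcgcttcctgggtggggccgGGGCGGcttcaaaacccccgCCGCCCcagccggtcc
Ltbp2 promoter, chr12:84876492-84876741, minus strand: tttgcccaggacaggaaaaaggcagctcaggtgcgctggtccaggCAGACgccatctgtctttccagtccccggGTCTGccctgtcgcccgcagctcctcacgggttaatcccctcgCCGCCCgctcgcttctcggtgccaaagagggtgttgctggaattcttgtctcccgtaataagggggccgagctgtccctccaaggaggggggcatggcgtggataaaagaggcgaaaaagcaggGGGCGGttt
Ltbp3 promoter, chr19:5740650-5740899, plus strand: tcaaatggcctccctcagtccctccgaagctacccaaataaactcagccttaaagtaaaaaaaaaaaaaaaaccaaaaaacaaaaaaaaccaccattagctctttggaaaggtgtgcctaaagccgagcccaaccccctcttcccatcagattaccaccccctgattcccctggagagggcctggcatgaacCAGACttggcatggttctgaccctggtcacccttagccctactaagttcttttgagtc
The *Ltbp2* window reaches down to 84876492 and so overlaps the gene interval given above, which ends at 84876558. The GC box was found 5 times in the *Tgfb1* window, 2 times in that of *Ltbp2* and 0 times in that of *Ltbp3*. It was found in 32.7% of the 32851 windows of this length in the RefSeq table. The GC box nearest the 3′ end of the *Ltbp2* window lies in the overlap. The Smad-binding element was found 0, 2 and 1 times, against 42.2% of all windows with a match. The AP-1 motif (6.75% of windows) and the TATA box (12.4%) were found 0 times in these 3 windows. GC content was 75.2% for *Tgfb1*, 61.6% for *Ltbp2* and 47.2% for *Ltbp3*. A match describes these letters and not a bound site.

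Between genes, levels were compared per kilobase of exon of the protein-coding transcripts. In Control muscles *Ltbp3* was highest at 16.8 ± 0.532 CPM per kb (SD, n = 6), followed by *Tgfb3* at 10.2 ± 0.676. Neither overlapped its neighbor below. *Tgfbr2* (5.69 ± 0.418), *Tgfb1* (5.10 ± 0.645) and *Tgfb2* (5.06 ± 0.518) followed and overlapped from one to the next. Then came *Tgfbr1* (3.55 ± 0.441), and below it *Ltbp1* (2.57 ± 0.165) and *Tgfbr3* (2.48 ± 0.173), which overlapped each other. *Ltbp2* was lowest at 0.319 ± 0.146 CPM per kb. In *FRAIL1* muscles *Tgfb1*, at 8.17 ± 1.81 CPM per kb, moved above *Tgfbr2* and still overlapped it (6.40 ± 0.707), *Tgfb2* (4.43 ± 0.371) overlapped *Tgfbr1* (4.24 ± 0.528), and the other genes kept their order. The place of *Tgfb1* depends on its annotated length: over all annotated exons, 5042 bases instead of 2175, it came seventh in Control and sixth in *FRAIL1* muscles, and *Tgfb3* was then above *Ltbp3*.

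**Figure D4:**
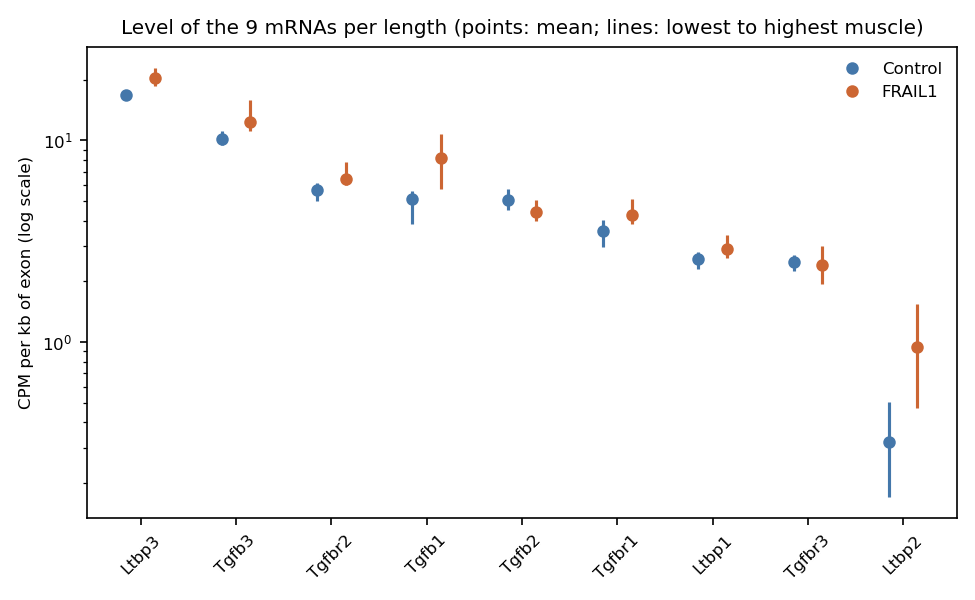
Mean CPM per kb of exon (log scale) of the 9 mRNAs in Control (blue) and *FRAIL1* (orange) muscles, ordered by the Control mean, with lines from the lowest to the highest muscle. The Control means run from 0.319 for *Ltbp2* to 16.8 for *Ltbp3*.

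The genes with the profile most like each ligand over the 12 muscles were sought among 12856 others with a mean of at least 1 CPM, as a description in which the muscles share the group difference. For *Tgfb1* they were *Prr15*, *Abca1* and *Pigs*, with a Pearson correlation of log2 CPM of 0.97 each. Of these, the cholesterol exporter *Abca1* went from a mean of 14.4 to 27.2 CPM, and *Prr15* was low, at 0.759 and 1.34 CPM. *Prr15*, *Abca1* and *Pigs* passed the test between groups (adjusted p of 0.0253, 0.0124 and 0.0381, edgeR). For *Tgfb3* they were *Hs6st2*, *Ptgfrn* and *Map4k4*, at 0.96, 0.95 and 0.95. *Ptgfrn* passed (adjusted p = 0.0432, edgeR), and *Hs6st2* and *Map4k4* did not (0.111 and 0.0884). For *Tgfb2* they were *Extl2*, *Eps15l1* and *D3Ertd751e*, at 0.92, 0.91 and 0.91, none of which passed the test between groups.

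Other genes of the pathway were followed in 4 lists. These lists and the marker lists below were also chosen with earlier results of these data known. Over all genes tested, 4.43% were higher and 1.85% lower in edgeR, and the median log2 fold change was 0.0096. *Smad7*, *Skil* and *Pmepa1* count both among the regulators of Smads and among the genes induced by TGF-beta. Of 26 tested genes that hold, modify or activate the latent complex, 4 rose and 2 fell, with a median log2 fold change of 0.27. *Bgn*, a proteoglycan that binds TGF-beta, rose from 67.2 ± 5.91 to 130 ± 40.9 CPM (SD, n = 6 each; log2 fold change 0.95, adjusted p = 0.0111, edgeR). *Mmp14*, a membrane-bound metalloproteinase, rose from 43.0 ± 5.83 to 83.7 ± 35.0 CPM (log2 fold change 0.96, adjusted p = 0.0326, edgeR). *Itgav*, the alpha subunit of the integrins that pull TGF-beta out of its latent complex, rose by 0.37 on the log2 scale (adjusted p = 0.0282, edgeR), and *Itgb1*, a widely expressed beta subunit, by 0.26 (adjusted p = 0.0397, edgeR).

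The beta subunit *Itgb6*, whose integrin with alpha v activates latent TGF-beta, fell instead. Its level was 36.6 ± 1.71 CPM in Control and 31.6 ± 0.774 CPM in *FRAIL1* muscles, with no overlap, and the log2 fold change was -0.21 (adjusted p = 0.0220, edgeR). The secreted protease *Adamts1* was lower too, at 46.0 ± 6.01 against 34.7 ± 4.23 CPM (log2 fold change -0.41, adjusted p = 0.0221, edgeR). *Bgn* stayed under the threshold with any 1 muscle left out, and the other 5 genes did not, with a highest adjusted p between 0.0535 and 0.0846. *Dcn*, *Tgm2*, *Ltbp4* and *Mmp2* had the highest levels of those that did not pass, with adjusted p-values of 0.948, 0.351, 0.840 and 0.0626 (edgeR).

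Of 9 tested accessory and other receptors, 1 rose and 0 fell (2 and 1 at an unadjusted p under 0.05, edgeR; 1 and 0 in DESeq2 and in limma voom), and the median log2 fold change was -0.04. *Cd109*, a membrane-anchored co-receptor known to dampen TGF-beta signaling, rose from 2.48 ± 0.566 to 5.66 ± 2.25 CPM (log2 fold change 1.19 ± 0.250 SE, adjusted p = 0.0187, edgeR). The groups did not overlap but almost touched, with the highest Control muscle at 3.235 CPM and the lowest *FRAIL1* muscle at 3.237 CPM. *Cd109* stayed under the threshold with any 1 muscle left out. *Eng* (66.2 ± 7.09 against 58.6 ± 4.35 CPM), *Acvrl1* (21.2 ± 1.90 against 19.7 ± 1.18), *Nrp1* (78.0 ± 5.40 against 75.6 ± 6.16) and *Acvr1* (19.2 ± 2.07 against 18.7 ± 0.869) did not pass.

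Of 20 Smads and regulators of Smads, 0 rose and 2 fell in edgeR (4 and 12 at an unadjusted p under 0.05; 1 and 8 in DESeq2, 1 and 4 in limma voom), with a median log2 fold change of -0.16. *Zfyve9* (SARA), which brings Smad2 and Smad3 to the receptor, fell from 51.4 ± 2.49 to 38.7 ± 7.98 CPM (adjusted p = 0.0493, edgeR). *Ppm1a*, a phosphatase of activated Smads, fell from 115 ± 5.43 to 92.4 ± 14.3 CPM (adjusted p = 0.0492, edgeR). With 1 muscle left out the adjusted p reached 0.0971 and 0.0999. *Smad3*, at 132 ± 26.6 and 93.3 ± 21.4 CPM, did not pass (adjusted p = 0.0781, edgeR), nor did *Wwp1*, *Usp15* and *Ski* (0.170, 0.155 and 0.0811).

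Of 31 tested genes that TGF-beta induces in fibroblasts, 8 rose and 0 fell in edgeR (18 and 2 at an unadjusted p under 0.05; 14 and 1 in DESeq2, 10 and 0 in limma voom). The median log2 fold change was 0.39, and 0.35 without *FRAIL1* muscle 5. *Ltbp2* is 1 of the 8, and the others were *Cdkn1a*, *Adam12*, *Fn1*, *Cthrc1*, *Timp1*, *Postn* and *Col1a2*. *Adam12*, a metalloproteinase of activated mesenchymal cells, rose from 1.87 ± 0.384 to 4.59 ± 2.60 CPM (adjusted p = 0.0205, edgeR). *Cthrc1*, a secreted glycoprotein of activated fibroblasts, rose from 2.12 ± 0.563 to 5.60 ± 3.53 CPM (adjusted p = 0.0320, edgeR). *Timp1*, an inhibitor of metalloproteinases, rose from 4.42 ± 1.16 to 7.30 ± 1.83 CPM (adjusted p = 0.0339, edgeR). With 1 muscle left out, *Cdkn1a* stayed under the threshold throughout and the other 7 did not, and 4 of the list rose without both muscles numbered 5. The fibrillar collagens *Col1a1* and *Col3a1*, *Acta2* and *Bhlhe40* did not pass (adjusted p of 0.0522, 0.0671, 0.163 and 0.713, edgeR). Their log2 fold changes were 1.04, 0.82, 0.22 and -0.07. *Col1a1* had means of 449 ± 96.6 and 927 ± 524 CPM, and *Col3a1* of 731 ± 161 and 1293 ± 611 CPM. For both collagens all *FRAIL1* muscles lay above all Control muscles, as in 3.12% of all genes tested. Without *FRAIL1* muscle 5 the log2 fold changes of these collagens were 0.68 and 0.51.

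A pair of early targets of Smad signaling was chosen for naming after their values were seen. *Ccn2*, connective tissue growth factor, was at 11.4 ± 3.36 CPM in Control and 11.9 ± 3.33 CPM in *FRAIL1* muscles (adjusted p = 0.867, edgeR). *Smad7*, the inhibitory Smad, was at 10.7 ± 0.875 and 8.94 ± 1.04 CPM (log2 fold change -0.26, adjusted p = 0.0802, edgeR). Neither passed the test in either direction.

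**Figure D5:**
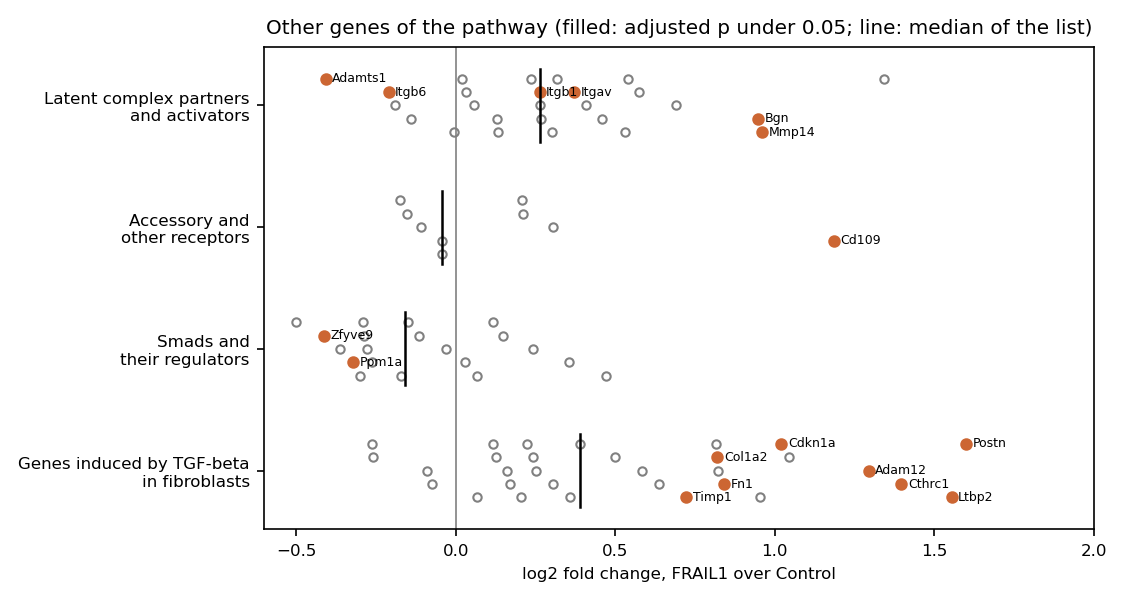
Log2 fold change (x axis) of each tested gene of 4 lists of the TGF-beta pathway, with filled orange points for an adjusted p under 0.05 and a black line at the median of each list. The medians are 0.27, -0.04, -0.16 and 0.39 from top to bottom.

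Markers of some other cell types differed between the groups as well. Of 11 markers of satellite cells and regenerating fibers 6 rose (9 in DESeq2, 6 in limma voom), with a summed level of 221 to 279 CPM in Control and 403 to 1681 CPM in *FRAIL1* muscles (at most 755 without muscle 5). Of 8 tenocyte markers 2 rose (2 in either other tool; 149 to 327 against 254 to 518 CPM). Of 12 markers of fibro-adipogenic cells and fibroblasts 1 rose in edgeR, *Col1a2* (3 in DESeq2, 2 in limma voom). At an unadjusted p under 0.05, 4 of them rose and 0 fell (edgeR). Their median log2 fold change was 0.06, and their sum was 1297 to 2272 against 2197 to 4261 CPM. That sum differed through *Col1a1* and *Col1a2*, which are also in the list of induced genes. The other 10 markers summed to 994 ± 158 CPM in Control and 982 ± 102 CPM in *FRAIL1* muscles (SD, n = 6 each). *Gsn* weighed most in that sum, at a mean of 462 and 402 CPM, and the single markers moved unequally. *Pdgfra*, *Lum* and *Col15a1* had log2 fold changes of 0.44, 0.75 and 0.52 (adjusted p of 0.0662, 0.102 and 0.189, edgeR). Those of *Dcn*, *Cd34* and *Smoc2* were 0.02, 0.10 and 0.02, and those of *Gsn*, *Ly6a*, *Pi16* and *Dpp4* were negative. Of 12 macrophage markers 0 rose or fell in edgeR (9 and 0 at an unadjusted p under 0.05; 7 and 0 in DESeq2, 2 and 0 in limma voom), and their sum was 301 to 480 CPM in Control and 368 to 958 CPM in *FRAIL1* muscles. Of 11 endothelial markers 3 fell (4 in either other tool; 593 to 696 against 477 to 596 CPM), and of 10 muscle fiber markers 1 fell (5 at an unadjusted p under 0.05, in DESeq2 and in limma voom). Without *FRAIL1* muscle 5, 6 satellite cell, 1 tenocyte and 1 fibroblast marker rose, and 3 endothelial and 3 muscle fiber markers fell. In 6 other lists together (neutrophils, lymphocytes, platelets, smooth muscle and pericytes, Schwann cells, red blood cells), 0 of 37 tested genes rose or fell in edgeR (2 and 6 at an unadjusted p under 0.05; 1 and 3 in DESeq2, 0 and 1 in limma voom). No marker of these lists that is in the count table was at 0 in every muscle. The part of these cell types in the changes of the TGF-beta genes was not tested.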

How the data were processed

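The authors deposited whole-number counts of reads per gene, without normalization. According to the labels and the study's methods, polyadenylated RNA was sequenced, adaptors were trimmed with Trimmomatic, reads were mapped to mm10 with STAR 2.7.8a, and reads that mapped uniquely to annotated genes were counted with featureCounts 2.0.1. The annotation release and strand setting are not given in the sources used here. Gene IDs were matched to RefSeq symbols of GRCm38.p6 (25275 of 27179; the others held 0.28% of counts), and exon lengths were taken from GENCODE M21.

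Genes were filtered with filterByExpr, scaled with TMM and tested with robust glmQLFit and glmQLFTest of edgeR 4.0.16 (R 4.3.3) on all 12 muscles, without a term for the mouse. Standard errors are the log2 fold change divided by the square root of the F statistic. Log2 ratios used a prior count of 2. Alternatives were other scalings and filters, DESeq2 1.42.0, limma voom 3.58.1, the replicate number as a block, and fits without single muscles. The steps were tested on simulated data. The genes and lists were chosen with earlier results of these data known. The text names all 9 genes, of each pathway list the genes past the threshold (at most 8) and the 4 most abundant of the rest, and 3 genes per ligand by likeness. *Ltbp2* rests on the fewest counts.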

Additional observations from a re-analysis of the deposited data

Results flagged for a closer look

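Among 82 groups of 6 muscles (41 named genes in Control and in *FRAIL1* muscles), 18 held a muscle whose gap to the next, divided by the range of the group, was above 0.625, a limit that chance passes in about 1 in 20 groups. In 12 of the 18 the muscle was *FRAIL1* muscle 5. Of the TGF-beta genes, *Tgfb3* was at 53.3 CPM in that muscle (others 37.8 to 41.4) and *Tgfbr2* at 63.7 CPM (others 49.1 to 53.7), and *Tgfb1* was low in Control muscle 3, at 8.34 CPM (others 11.2 to 12.2).

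In *FRAIL1* muscle 5 the collagens were at 1969 CPM (*Col1a1*), 1307 CPM (*Col1a2*) and 2531 CPM (*Col3a1*), *Postn* at 435 CPM, *Mmp2* at 174 CPM, *Adam12* at 9.80 CPM and *Cthrc1* at 12.4 CPM, each above the other 5 *FRAIL1* muscles. The integrin subunits were at 38.1 CPM (*Itgav*) and 387 CPM (*Itgb1*) there, also highest, and *Bhlhe40* was lowest at 70.7 CPM. In Control muscles, *Adamts1* was at 57.6 CPM in muscle 1, *Acvr1* at 23.3 CPM in muscle 3 and *Timp1* at 6.66 CPM in muscle 4, each highest. In Control muscle 5, *Eng* was highest at 79.7 CPM and *Wwp1* lowest at 145 CPM.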

How the results depend on the processing

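The log2 fold changes of the 9 genes kept their sign in every alternative except *Tgfbr3* without *FRAIL1* muscle 1 (0.0020, against -0.13 at the other end of the range with 1 muscle left out). In the tests of these genes, 182 results stayed on their side of the threshold, 22 fell short of it and 2 passed it newly. The cause was not tested. Of the TGF-beta genes 4 were higher, against 2 without a filter and 2 without both muscles numbered 5, and 1 was lower without both muscles numbered 5 and with the replicate block. The number higher was 2 to 4 and lower 0 to 1 with 1 muscle left out.

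Over all genes, 687 were higher and 287 lower. The DESeq2 Wald test gave 1281 and 951, the replicate block 1159 and 1027, and the replicate block without both muscles numbered 5 gave 1093 and 1212. Those lower were 184 without a filter and 813 in limma voom. With 1 muscle left out the ranges were 314 to 1228 higher and 50 to 882 lower.

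For partners and activators of the latent complex, 2 genes were higher without a filter, 9 in DESeq2 and 7 in limma voom, and 1 was lower without both muscles numbered 5, with or without the block. For accessory receptors 1 was lower with the replicate block, also without both muscles numbered 5. For Smads and regulators, 1 was higher in DESeq2 and in limma voom and 2 with the replicate block. Those lower were 0 without a filter, 1 in a fit that was not robust, 8 in DESeq2, 4 in limma voom, 6 with the replicate block, and 7 with it and without both muscles numbered 5. For genes induced by TGF-beta, 5 were higher without a filter, 14 in DESeq2 and 4 without both muscles numbered 5, and 1 was lower in DESeq2. With 1 muscle left out, 1 to 9 were higher and 1 to 2 lower among partners and activators, 1 higher and 0 lower among accessory receptors, 0 to 1 higher and 0 to 5 lower among Smads, and 1 to 14 higher and 0 lower among induced genes. Of the ratios, 6 of 9 pairs passed, 0 without both muscles numbered 5, and 2 to 6 with 1 muscle left out.

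The labels do not say that a replicate number marks a mouse. Deviations from the group means correlated between muscles of 1 number by 0.0547 (number 5) to 0.282, and 5 of the 6 pairs correlated best with their own number. With the replicate block the adjusted p was 0.00228 for *Tgfb1*, 0.0386 for *Tgfb3*, 0.00548 for *Ltbp2*, 0.0140 for *Ltbp3* and 0.0509 for *Tgfb2*, and the same 4 genes passed (edgeR). In an exact sign-flip permutation test of the 6 differences between muscles of 1 number, the same 6 ratios passed (adjusted p = 0.0469 each). Each of the 6 was at the smallest p-value that this test allows. The ratios share genes, so they are not independent results. The differences ran from 0.49 to 1.18 for *Tgfb1*/*Tgfb2*, from -0.82 to -0.21 for *Tgfb2*/*Tgfb3* and from 0.14 to 0.52 for *Tgfb1*/*Tgfb3*, with 1 sign in all 6 numbers for each.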
